A study of Mus musculus with 3 samples.

Results

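The genes described are 9 canonical targets of the Notch pathway (Dtx1, Hes1, Hes5, Hes7, Hey1, Hey2, Heyl, Nrarp and Ptcra), taken by symbol and each measured by 1 probe, out of 20887 genes that could be named on the array. RNA came from mouse CD4+ T cells 2 days after stimulation and was labelled with Cy3 for 1-colour oligonucleotide arrays. The groups were Dll1-/- cells, Rbpj-/- cells and wild-type (WT) cells, with 1 array each, all from female C57BL/6 mice aged 8 weeks. The series concerns Delta-like 1, a Notch ligand, as a carrier of survival signals on activated T cells, and the comparisons set loss of that ligand and loss of the pathway's nuclear effector (Rbpj) against WT. The sources used here do not give the stimulus, the cells in which each gene was deleted or the number of mice behind an array. Because each group is a single array, no p-value is given, and every difference below is one between arrays, without any measure of the spread between mice.

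When a Notch receptor binds a ligand on a neighbouring cell, its intracellular part is cut free, enters the nucleus and joins the DNA-binding protein RBPJ, which then recruits Mastermind coactivators to switch on target genes. Without Notch, RBPJ can sit at the same sites with corepressors and hold genes down. The best known targets are basic helix-loop-helix repressors of the Hes and Hey families, with Nrarp and Dtx1 as regulators of the pathway itself and Ptcra as a target in immature thymocytes.

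Of these 9 genes, 3 were well above background on every array (Dtx1, Hes5 and Hes7), 1 was so in the Rbpj-/- array alone (Hey1), and 5 were so on no array (Hes1, Hey2, Heyl, Nrarp and Ptcra). Dtx1 was about 6-fold lower in Rbpj-/- cells than in WT cells and differed by a log2 value of only -0.01 between Dll1-/- and WT cells. Hes5 and Hes7 lay within 1.5-fold of WT in both knockouts. Levels are log2 processed signals from the scanner software, from which the 75th percentile of each array was subtracted, so a level of 0 is the signal that 75% of probes do not reach. Since probes differ in how strongly they bind, levels are compared between arrays and not between genes.

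**Figure D1:**
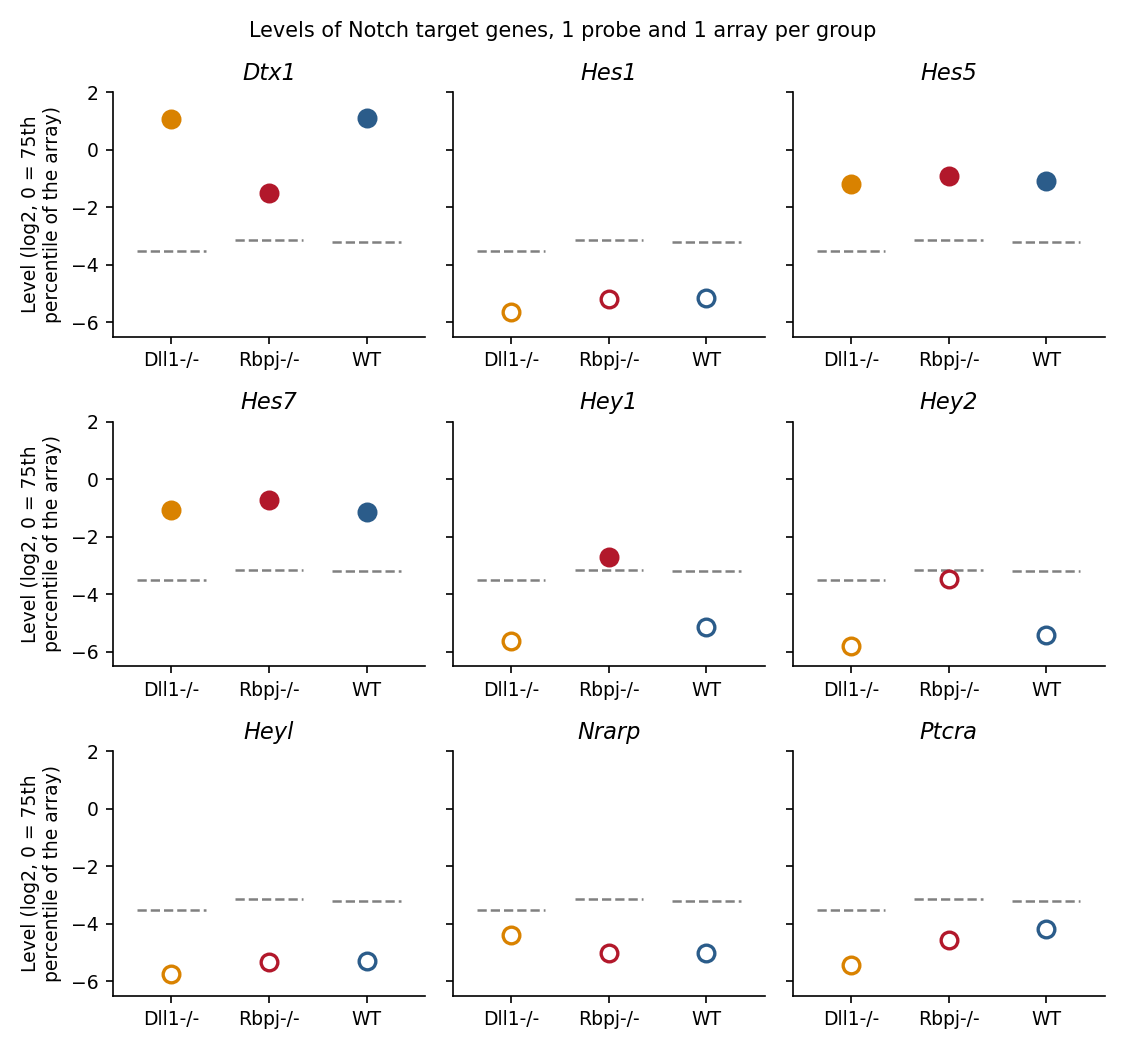
Level of each of the 9 genes (y axis, log2 relative to the array's 75th percentile) on the Dll1-/-, Rbpj-/- and WT arrays, where each point is 1 probe on 1 array, filled where it was well above background and open where not, and dashed lines mark each array's lowest level well above background (-3.51, -3.16 and -3.21). Dtx1 stands at -1.50 in Rbpj-/- cells against 1.07 in Dll1-/- and 1.09 in WT cells, and Hey1 is filled in Rbpj-/- cells only.

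The arrays were of like quality in detection, saturation and repeated spots. Their brightest negative control spots differed, at 32.7 in Dll1-/-, 103 in Rbpj-/- and 113 in WT. Between 46.6% and 50.1% of 55681 probes were well above background, 0 spots outside the controls were saturated, and probes printed repeatedly on an array had a median spot SD of 0.06 to 0.07 log2. The 8 CD4 T cell markers, including Cd3e and Cd4, were all detected on each array. The targeted genes give no check of the labels, because the sources used here do not say where their probes lie relative to the deleted sequence. Rbpj, as a mean of 2 probes, differed from WT by 0.28 log2 in Dll1-/- and by -0.51 in Rbpj-/- cells, and all 3 arrays read Dll1 as dim.

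Dtx1 encodes Deltex1, a ubiquitin ligase of the Notch pathway that has also been tied to T cell unresponsiveness. Its processed signal was 327 in Dll1-/- cells, 50.01 in Rbpj-/- cells and 377 in WT cells, and the software's own error estimate was 32.8, 6.00 and 37.9 in the same order. On the scaled log2 axis these signals correspond to levels of 1.07, -1.50 and 1.09. The Rbpj-/- array was thus the low one, while the other arrays read alike. Its Dtx1 signal was still 3.16 times the lowest signal called well above background on that array, so by the software's call the value is a measured level and not a bound. The brightest negative control spot on that array read 103, above the Dtx1 signal, while the median of these spots was 3.49.

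The difference of Dtx1 in Rbpj-/- minus WT cells was -2.59 log2 (6.01-fold lower), with an error of 0.23 log2 propagated from the software's estimates for the spots. Against Dll1-/- cells it stood at -2.57 log2 (5.95-fold lower), and both comparisons use the same Rbpj-/- array. Among 11578 genes measured in Rbpj-/- and WT cells, 6 had a difference as low as that of Dtx1 or lower, Dtx1 included. Of the 1647 genes whose mean level was within 0.5 log2 of Dtx1, 30 (1.82%) were at least 2-fold lower, 24 were at least 2-fold higher, and the central 95% of differences lay between -0.90 and 0.79. The size depended on the processing, with a difference of -1.73 log2 when normexp correction and quantile normalization replaced the processed signal and its scaling together. Under the other 9 settings tried it ran between -3.18 and -2.45.

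The same gene in Dll1-/- cells differed from WT by -0.01 log2 with a software error of 0.20, and by values between -0.19 and 0.01 over 10 other settings. Of the 1763 genes at a like level, 95% lay between -0.41 and 0.40. The low Dtx1 reading was thus one of the Rbpj-/- array and not of the Dll1-/- array.

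The Dtx1 spot was examined on the array surface, since single arrays carry local faults. It lies in row 56 of 384, and spots bright on 1 array alone were more frequent in rows 1 to 192 than in the other rows. Spots at least 2-fold above both other arrays were counted among those well above background. On the WT array they were 677 of 14227 in rows 1 to 192 and 11 of 13604 in rows 193 to 384. The Dll1-/- array had 460 of 15162 and 69 of 14726, and the Rbpj-/- array 512 of 14272 and 291 of 13953. The number of spots at least 2-fold lower on the Rbpj-/- array than on both others was even, with 263 of 13085 measured spots in rows 1 to 192 and 240 of 13103 in rows 193 to 384. Within 10 rows and 10 columns of Dtx1, 185 spots measured on the Rbpj-/- and WT arrays had a median difference of -0.04 log2, of which 3 were 2-fold or more above WT and 3 as far below. Subtracting the local median on each array left Dtx1 at -2.54. The unprocessed reading ran the same way, as the median spot signal less its local background was 345 in Dll1-/- cells, 54.5 in Rbpj-/- cells and 406 in WT cells.

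B cells also express Dtx1, so B cell markers were read beside it. Of 8 B cell markers, 5 were measured in both Rbpj-/- and WT cells, 4 of them were lower and 0 reached 2-fold, with a median difference of -0.49 log2. Among all genes 60.4% were lower, 3.14% were 2-fold apart in either direction, and the median was -0.07. The summed linear level of the B cell markers (array 75th percentile = 1) was 21.6 in Dll1-/-, 15.1 in Rbpj-/- and 21.7 in WT cells. Blk was dim on all 3 arrays. In Rbpj-/- minus WT cells Ms4a1, which encodes CD20, was at -0.73, and the complement receptor gene Cr2 was at 0.24. Cd79a, a B cell receptor chain gene, was above background in Dll1-/- and Rbpj-/- cells at levels of -3.17 and -2.04 and dim in WT cells. The part of B cells in the Dtx1 difference was not tested, and fewer cells of a type cannot be told apart from less RNA per cell here.

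By the distance between their differences from WT in Dll1-/- and Rbpj-/- cells, the 5 genes nearest to Dtx1 among 11018 genes measured on all 3 arrays were Pros1, Il4, Pdlim4, Gzma and Agap1. Pros1, which encodes the anticoagulant protein S, was at a distance of 0.21 log2 with differences of -0.13 in Dll1-/- and -2.76 in Rbpj-/- cells. Il4, the signature cytokine of Th2 cells, was at 0.27, with 0.25 and -2.64 in the same order. Pdlim4, which encodes a PDZ and LIM domain protein, was at 0.46, the killer cell protease gene Gzma at 0.65 and Agap1, an Arf GTPase-activating gene, at 0.69. The Pros1 probe lies in rows 193 to 384 and those of the other 4 genes in rows 1 to 192. With 3 arrays such likeness is a description, and many genes low on 1 array alone would be alike by this measure.

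**Figure D2:**
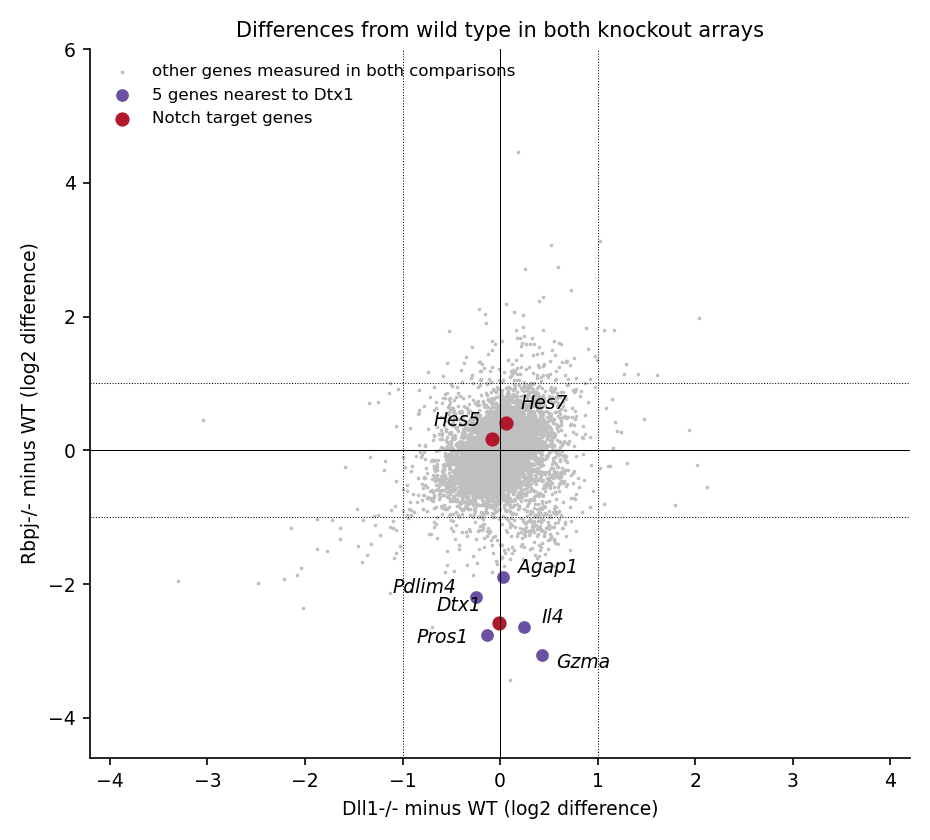
Log2 difference from WT in Dll1-/- cells (x axis) and in Rbpj-/- cells (y axis), with 1 point per gene measured in all comparisons and dotted lines at 2-fold. Dtx1 lies at -0.01 and -2.59 beside Pros1 and Il4, whereas Hes5 and Hes7 lie inside the main cloud.

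Hes5 and Hes7 encode repressors that are short-lived and, in embryonic tissue, direct readouts of Notch, Hes5 in neural progenitors and Hes7 in the clock of the forming somites. Hes5 had a processed signal of 68.3 in Dll1-/- cells, 74.1 in Rbpj-/- cells and 82.6 in WT cells, or levels of -1.19, -0.93 and -1.10 after scaling. Hes7 had 74.0 in Dll1-/-, 85.2 in Rbpj-/- and 80.8 in WT cells, or levels of -1.07, -0.73 and -1.14. For both genes the Rbpj-/- array had the highest scaled level, though not the highest signal for Hes5. On the Rbpj-/- and WT arrays both genes read below the brightest negative control spot (103 and 113).

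In Rbpj-/- cells Hes5 differed from WT by 0.17 log2 (software error 0.22) and Hes7 by 0.40 (software error 0.23), and both differences turned negative when arrays were scaled to the spike-in spots, at -0.42 and -0.18. Of all measured genes, 20.9% were as high as Hes5 or higher in that comparison and 8.53% as high as Hes7 or higher. Against Dll1-/- cells the values in Rbpj-/- cells were 0.26 for Hes5 and 0.34 for Hes7, which became -0.16 and -0.08 under spike-in scaling. In Dll1-/- cells Hes5 was at -0.08 and Hes7 at 0.06 relative to WT, each smaller than its software error of 0.22 and 0.23, and Hes7 was at -0.11 under spike-in scaling. The low level of Dtx1 on the Rbpj-/- array was therefore not shared by these Hes genes.

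Counted together, 1 of 3 measured members was at least 2-fold lower in Rbpj-/- cells than in WT cells, where 1.95% of all 11578 measured genes were. The count higher by that much was 0 of 3, where 1.19% of all genes were, and 3.14% of all genes were 2-fold apart in either direction. In Rbpj-/- minus Dll1-/- cells 1 of 3 members was lower, where 2.5% of 11794 genes were, and 0 of 3 were higher, where 1.44% of genes were, with 3.94% in either direction. In Dll1-/- minus WT cells 0 of 3 were higher, where 0.237% of 11812 genes were, and 0 of 3 were lower, where 0.525% were, with 0.762% in either direction. The members' counts rest on a single gene, Dtx1. The median over the 3 members was 0.17 log2 in Rbpj-/- minus WT, 0.26 in Rbpj-/- minus Dll1-/- and -0.01 in Dll1-/- minus WT, beside medians of -0.07, -0.03 and -0.03 over all measured genes. With 3 measured genes a median leaves out the gene that stood apart, and the Rbpj-/- medians became -0.42 and -0.16 under spike-in scaling, which moves all genes of an array alike.

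**Figure D3:**
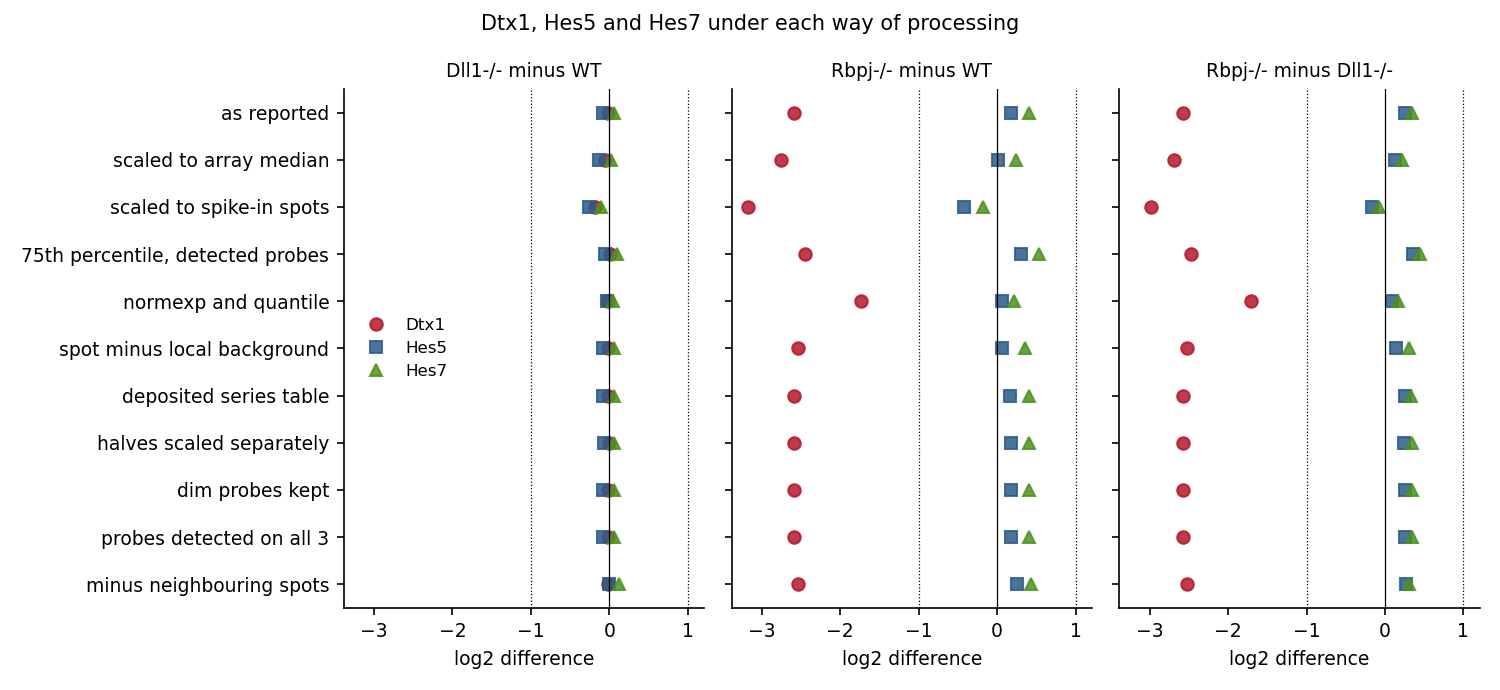
Log2 difference of Dtx1 (circles), Hes5 (squares) and Hes7 (triangles) in each comparison (x axis, dotted lines at 2-fold) under the reported processing and 10 others (rows). Dtx1 stays beyond 2-fold in both comparisons of Rbpj-/- cells, from -3.18 to -1.73 against WT, while Hes5 and Hes7 lie near 0 and turn negative under spike-in scaling.

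Hey1 encodes a repressor best known from blood vessel and heart development. It was called well above background in Rbpj-/- cells only, with a processed signal of 3.13 in Dll1-/- cells, 21.7 in Rbpj-/- cells and 5.02 in WT cells. The dim arrays give bounds, set by their lowest signal well above background (13.6 in Dll1-/- and 19.2 in WT cells). On the scaled axis, taking these calls as given, the bound for Hey1 in Rbpj-/- cells was 1.41-fold above WT and 1.75-fold above Dll1-/- cells. The bound against WT was 1.26-fold under array median scaling and 1.55-fold under scaling over probes detected on all arrays. These bounds rest on the lowest called signal of each dim array and not on a limit for the Hey1 spot itself. The brightest negative control spot on the Rbpj-/- array read 103, above the Hey1 signal, while the median of these spots was 3.49. Under spike-in scaling the bound against WT was lost, since it fell to -0.09 log2, and that against Dll1-/- cells was at least 1.31-fold. Its spot on the Rbpj-/- array, in row 160 and column 3, had a software error of 20.6% of the signal.

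Hey2 is a relative of Hey1 with related roles in heart and vessels. Its processed signal was 2.79 in Dll1-/- cells, 12.9 in Rbpj-/- cells and 4.14 in WT cells. By the software's weaker criterion, a signal above background that is merely significant, it was detected on the Rbpj-/- array alone. Because no array called it well above background, neither a fold nor a direction is given. Both Hey spots lie in rows 1 to 192, where 512 of 14272 spots well above background on the Rbpj-/- array were at least 2-fold higher there than on both others, against 291 of 13953 in rows 193 to 384. The part of the array surface in these readings was not tested.

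Markers of endothelial and stromal cells, in which Hey genes are active, were looked at beside them. Of 8 genes listed for such cells, 3 were above background in Dll1-/- cells, 5 in Rbpj-/- cells and 4 in WT cells. These counts include Epcam, an epithelial gene that does not mark such cells. Kdr, by the 1 of its 2 probes above background, had levels of 3.52 in Dll1-/-, 3.79 in Rbpj-/- and 3.62 in WT cells. The 3 listed genes measured in both Rbpj-/- and WT cells were higher in Rbpj-/- cells, beside 39.6% of all genes. They were Pecam1 at 0.20 log2, Kdr at 0.16 and Epcam at 0.73. Their median difference was 0.20 log2, and 0 reached 2-fold. Cdh5, which encodes VE-cadherin, and the collagen gene Col1a1 were above background in Rbpj-/- cells only, at levels of -2.80 and -3.02. Another collagen gene, Col3a1, was above background in WT cells only, at -2.03. The angiopoietin receptor gene Tek was dim on all 3 arrays. The part of such cells in the Hey1 reading was not tested.

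The other members were not well above background anywhere. Hes1, the most widely used readout of Notch, had processed signals of 3.10 in Dll1-/- cells, 3.84 in Rbpj-/- cells and 4.95 in WT cells, each about as large as its software error. Heyl, the third Hey family gene, had 2.90, 3.51 and 4.48 in the same order. Negative control spots had median signals of 2.88, 3.49 and 4.37 on these arrays, so both genes read near the negative controls on each.

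Nrarp, which encodes a small ankyrin repeat protein that restrains Notch signalling, had processed signals of 7.37 in Dll1-/-, 4.40 in Rbpj-/- and 5.51 in WT cells, and met the weaker criterion in Dll1-/- cells only. Ptcra, which encodes the pre-T cell receptor alpha chain, had 3.60 in Dll1-/-, 5.93 in Rbpj-/- and 9.75 in WT cells, and met the weaker criterion in Rbpj-/- and WT cells. All of these signals were below the lowest signal called well above background on their array (13.6, 15.8 and 19.2 for Dll1-/-, Rbpj-/- and WT). Whether these 5 genes differed between the groups was not detectable at these signals, which is not a sign that they did not. Rag1 and Rag2, which like Ptcra mark immature thymocytes, were dim on all 3 arrays too. The other genes listed for that stage, Dntt and Cd1d1, were above background on all 3. They differed by 1.39 and 0.18 log2 in Rbpj-/- minus WT cells. Cd1d1 is also expressed outside the thymus, so its detection does not mark that stage.

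RefSeq promoter windows of assembly GRCm38.p6, from 250 bases before to 50 after the transcription start, matched 6 of the 9 genes (Dtx1, Hes5, Hes7, Hey2, Nrarp and Ptcra). They were searched on both strands for TGGGAA, the core of the sequence RBPJ binds, and for GTGGGAA, a longer form that contains it. The first occurred in 25.6% of 32851 windows and the second in 6.38%. The windows of Dtx1, Hes5 and Hes7, which could be measured, and of Hey2, which holds paired copies, are given 5′ to 3′ on the gene's strand, with TGGGAA or its reverse complement TTCCCA in capitals.
Dtx1, chr5:120711620-120711919, minus strand: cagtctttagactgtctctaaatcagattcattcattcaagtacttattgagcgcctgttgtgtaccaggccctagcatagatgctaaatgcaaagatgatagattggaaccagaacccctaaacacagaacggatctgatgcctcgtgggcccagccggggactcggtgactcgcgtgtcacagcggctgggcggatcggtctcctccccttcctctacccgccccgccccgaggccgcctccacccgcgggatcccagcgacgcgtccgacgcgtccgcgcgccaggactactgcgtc
Hes5, chr4:154960673-154960972, plus strand: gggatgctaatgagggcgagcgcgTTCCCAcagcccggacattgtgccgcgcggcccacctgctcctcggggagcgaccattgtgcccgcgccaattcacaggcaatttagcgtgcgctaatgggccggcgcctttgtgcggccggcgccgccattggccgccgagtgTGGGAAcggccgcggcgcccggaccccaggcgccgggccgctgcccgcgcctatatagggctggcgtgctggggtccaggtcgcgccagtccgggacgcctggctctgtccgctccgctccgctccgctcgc
Hes7, chr11:69120203-69120502, plus strand: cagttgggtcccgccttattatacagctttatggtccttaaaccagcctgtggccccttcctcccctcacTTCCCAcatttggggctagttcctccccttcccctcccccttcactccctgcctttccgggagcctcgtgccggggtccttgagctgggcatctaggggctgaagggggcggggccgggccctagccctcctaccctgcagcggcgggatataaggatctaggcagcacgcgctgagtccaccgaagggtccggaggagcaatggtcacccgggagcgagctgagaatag
Hey2, chr10:30842734-30843033, minus strand: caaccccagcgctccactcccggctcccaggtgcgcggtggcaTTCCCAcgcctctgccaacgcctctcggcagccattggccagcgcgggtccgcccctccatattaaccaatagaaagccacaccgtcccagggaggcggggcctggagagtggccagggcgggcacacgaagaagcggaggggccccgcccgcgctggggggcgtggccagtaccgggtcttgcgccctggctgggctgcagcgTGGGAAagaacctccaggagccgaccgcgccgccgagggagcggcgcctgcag

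Of the 6 windows, 4 held TGGGAA and 3 held GTGGGAA. Hes5 had 2 copies of the longer form, whose TGGGAA cores lie 226 to 221 and 82 to 77 bases before the transcription start and face in opposite directions, and Hey2 had 2 copies that also face in opposite directions, one of them across the start itself. At least 2 copies of GTGGGAA occurred in 0.256% of all windows. Hes7 had 1 copy of the longer form, and Ptcra had 2 copies of the shorter one. The windows of Dtx1 and Nrarp held neither, and those of the other measured genes, Hes5 and Hes7, held both forms. A match to letters is no binding site, and an absence says nothing of sites elsewhere in the gene.

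**Figure D4:**
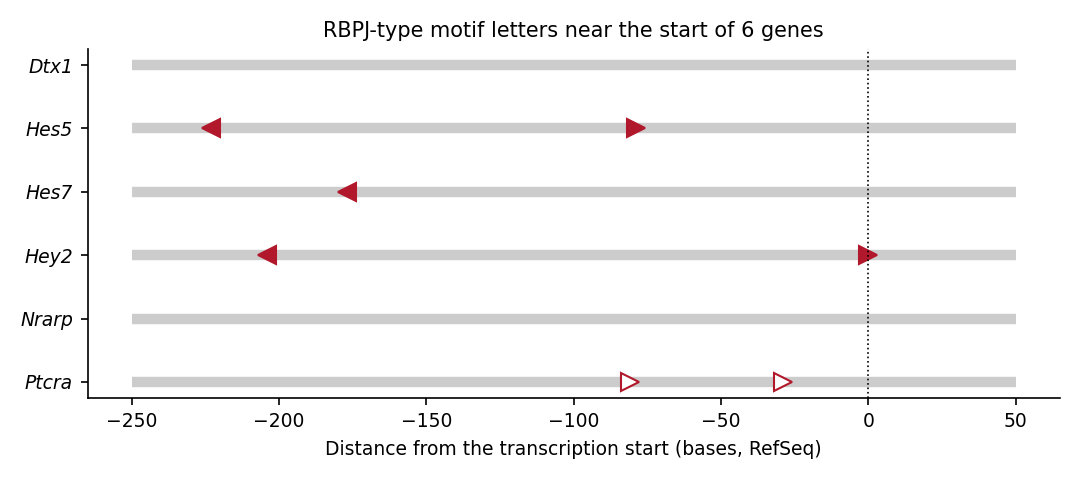
Position of TGGGAA in the RefSeq promoter windows of 6 genes (x axis, bases from the transcription start), where triangles point right for the gene's strand and left for the other one and are filled where the longer GTGGGAA is present. Hes5 and Hey2 each show 2 filled triangles that face in opposite directions, and Dtx1 and Nrarp show none.

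Receptors, ligands and the nuclear complex were read beside their targets. Of 13 such genes, 8 were measured in each comparison. In Dll1-/- cells 4 were higher and 4 lower than WT with a median of -0.02 log2, and in Rbpj-/- cells 6 of the 8 were lower with a median of -0.25, beside -0.03 and -0.07 over all genes. Among all genes 55.9% were lower than WT in Dll1-/- cells and 60.4% in Rbpj-/- cells. None of the 8 was 2-fold from WT under the reported processing, beside 0.762% and 3.14% of all genes. In Rbpj-/- cells 2 listed genes passed 2-fold downward under spike-in scaling (Dll4 and Rbpj) and 1 (Dll3) with dim probes kept. Dll4, a strong Notch ligand, had levels of -0.78 in Dll1-/- cells, -1.89 in Rbpj-/- cells and -1.39 in WT cells. It was at -1.11 log2 in Rbpj-/- minus Dll1-/- cells, past 2-fold in that comparison except after normexp with quantile normalization. The receptor genes Notch1 and Notch2 were at -0.25 and -0.31 in Rbpj-/- minus WT cells, and Maml3, a Mastermind coactivator, was at 0.72.

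Relatives of the targets were read next. None of the 3 measured Hes and Hey relatives (of 6 listed) and none of the 4 Deltex relatives was 2-fold from WT in either knockout. In Rbpj-/- cells 1 Deltex relative passed 2-fold downward under spike-in scaling and 1 upward under scaling over probes detected on all arrays. Among all genes only 0.762% in Dll1-/- and 3.14% in Rbpj-/- cells were 2-fold from WT. Counts of 0 in lists this short, the corepressors below included, therefore do not set them apart. Hes2, a Hes relative, was at 0.06 in Dll1-/- and 0.30 in Rbpj-/- cells, and Bhlhe40, a related repressor induced on T cell activation, at 0.51 and 0.28 in the same order. Among Deltex relatives Dtx4 was at 0.31 in Dll1-/- and 0.88 in Rbpj-/- cells, and the partner of PARP9, Dtx3l, was at -0.22 and -0.54 in the same order. The Groucho and histone deacetylase corepressors with which Hes and Hey proteins work were measured for 11 of 12 listed symbols, and 0 were 2-fold from WT in either knockout (1 lower in Rbpj-/- cells under spike-in scaling). Sin3a, a scaffold of histone deacetylase complexes, was at -0.04 in Dll1-/- and -0.40 in Rbpj-/- cells.

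Other genes reported to respond to Notch in T cells formed the list with the most 2-fold differences. Because the lists were chosen with earlier results of these data known, its counts are a description and not a test. Of 13 measured (16 listed), 9 were lower than WT, 3 of them at least 2-fold, and 0 were at least 2-fold higher in Rbpj-/- cells, with a median of -0.37, beside 60.4% lower and 1.95% at least 2-fold lower among all genes. In Dll1-/- cells 9 of the 13 were higher than WT, beside 44.1% of all genes, 0 were 2-fold apart, and the median was 0.14, which became -0.04 under spike-in scaling. The genes at least 2-fold lower in Rbpj-/- cells were Il4 at -2.64, the survival gene Bcl2 at -1.29 and Tbx21, which encodes the Th1 factor T-bet, at -1.04, the last within 2-fold under some settings. Against Dll1-/- cells the protease gene Gzmb was past 2-fold too, at -1.07, but not after normexp with quantile normalization or under scaling over probes detected on all arrays. Myc and Gata3, both reported as Notch targets in T cells, were at -0.45 and -0.37, and Igf1r, a growth factor receptor gene, was at 0.82. Under spike-in scaling the list's median became -0.96 in Rbpj-/- cells, with 6 genes at least 2-fold lower.

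Genes of the stage at which Ptcra is active and partners of Hes proteins completed the lists. Of 8 measured pre-T cell receptor stage genes (12 listed), Dntt, the terminal transferase of antigen receptor assembly, was at least 2-fold higher in Rbpj-/- cells at 1.39 log2, though not under spike-in scaling. Cd8a was at least 2-fold lower at -1.29, though not after normexp with quantile normalization or with dim probes kept. That value rests on the 1 of its 2 probes above background in Rbpj-/- cells. Cd8a is also a CD8 T cell marker, and the other such marker, Cd8b1, was at -0.57. Dntt had levels of -0.70 in Dll1-/- cells, 1.05 in Rbpj-/- cells and -0.35 in WT cells, so only the Rbpj-/- array was high. Of 6 E protein and Id genes none was 2-fold from WT under the reported processing, with Id1 at -0.94 and Id3 at 0.73 in Rbpj-/- cells. Id1 passed 2-fold downward there under array median scaling, under spike-in scaling and with the median spot signal less local background. Id1 and Id3 both encode partners that block E proteins from binding DNA, and they stood on opposite sides of WT in Rbpj-/- cells.

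**Figure D5:**
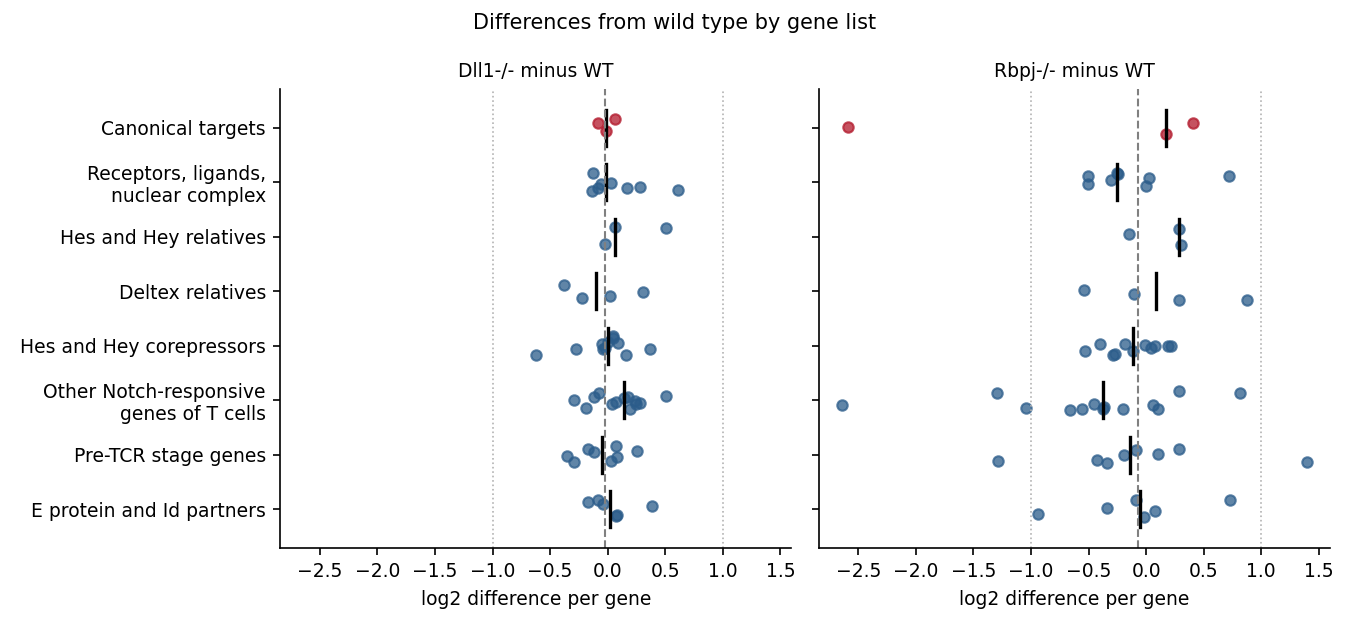
Log2 difference from WT per measured gene (x axis) in Dll1-/- cells (left) and Rbpj-/- cells (right) for the canonical targets and 7 related lists, with black bars at list medians, a dashed line at the median of all measured genes and dotted lines at 2-fold. In Rbpj-/- cells Dtx1 at -2.59 and Il4 at -2.64 lie far to the left, and no listed gene passes 2-fold in Dll1-/- cells.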

How the data were processed

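Gene expression was measured on 3 Agilent mouse arrays, 1 per genotype and all on 1 slide with 1 scan time per the file headers, from 20 ng of RNA per the labels. The scanner files that the authors deposited give a processed signal, a background-subtracted and detrended intensity from Agilent Feature Extraction (version 10.7 per the submitters' processing notes, 10.7.1.1 per the file headers). The authors also deposited a table of log2 values. At least 99.99% of its probes lay within 0.01 of the log2 signal after subtracting 1 constant from each array, so scale and direction are known and genes were not centred. Column medians were -3.39, -3.28 and -3.44 for Dll1-/-, Rbpj-/- and WT.

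Outlier spots (163, 139 and 143 of 59305) were left out, spots of one probe were averaged, and log2 signals were scaled to the array's 75th percentile over 55681 probes. Names came from accessions through a RefSeq table of GRCm38.p6 (27509 probes, 49.4%). The design is on mm9 per the file headers, so gene coordinates are not given. For each gene, probes well above background on both arrays were averaged, and differences of 2-fold or more were counted. Where only 1 array of a pair measured a probe, a bound is given. The number of arrays limits the precision, and software errors cover single spots only.

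The members and lists were chosen with earlier results of these data known. Named were all members, up to 4 genes per list that reached 2-fold or, where none did, the 2 farthest from WT in Rbpj-/- cells, and the 5 genes most like Dtx1. Beyond that rule, Notch1, Notch2, Myc, Gata3, Igf1r and the cell type markers named were chosen after their values were seen. Some genes that the rule would name are not reported here. Of the 69 list symbols, 3 had no entry in the name table (Aes, Cd25 and Heb). These are other names of Tle5, Il2ra and Tcf12, which stand in the same lists and were measured. The numbers listed thus count those genes again. There were 9 alternatives, and 1 more (subtraction of the local median) was added after seeing the data. The steps were tested on simulated data. Normexp (offset 50) used limma 3.58.1 in R 4.3.3 on the median spot and background intensity that the authors deposited, and other steps used Python 3.11.15.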

Additional observations from a re-analysis of the deposited data

How the results depend on the processing

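Dtx1 stayed at least 2-fold lower in Rbpj-/- cells under all 10 alternatives, from -3.18 to -1.73 log2 against WT and from -2.99 to -1.71 against Dll1-/- cells. Hes5 and Hes7 changed sign in Rbpj-/- cells under spike-in scaling only. That scaling took the members' median to -0.42 in Rbpj-/- minus WT and -0.16 in Rbpj-/- minus Dll1-/-, beside all-gene medians of -0.66 and -0.45. It took the count of genes 2-fold apart to 1501 (33 higher and 1468 lower, against 138 and 226) and 777 (61 higher and 716 lower, against 170 and 295). Scaling to the array median gave 92 higher and 356 lower in Rbpj-/- minus WT, and scaling over probes detected on all arrays 211 and 171. In Dll1-/- minus WT the split was 18 higher and 93 lower under spike-in scaling, against 28 and 62. Normexp with quantile normalization gave 12, 113 and 203 genes 2-fold apart in Dll1-/- minus WT, Rbpj-/- minus WT and Rbpj-/- minus Dll1-/-, against 90, 364 and 465. With dim probes kept these counts were 1147, 1754 and 1936, the members 2-fold apart numbered 1, 3 and 3, and the members' median in Dll1-/- minus WT was -0.38. The members added by keeping dim probes (Ptcra, then Hey1 and Hey2) are below background on at least 1 array of their pair, so these are not measured folds. For other changes the cause was not tested. No paired analysis was possible because each group has 1 array, and no replicate could be left out. Signal over background limits 6 of the 9 genes.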
